A study of Mus musculus with 24 samples.

Results

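The mitochondrial genome encodes 7 subunits of complex I, the NADH:ubiquinone oxidoreductase (ND1, ND2, ND3, ND4, ND4L, ND5 and ND6), and 13 of the 46116 probes on the mouse bead array used here target their RNAs. They are 7 of the 8131 genes that could be named on the array. A probe was taken where its target name carries the mitochondrial label of an ND gene (7 probes) or where the NCBI gene ID in its target name is that of a mitochondrial ND gene (6 probes). ND3 has 1 such probe and each of the other genes has a pair. The probes of a pair are named for the same gene and are given each on its own. Whether they read the same transcript was not tested. RNA came from kidney and testis of 12 mice per the labels, hybridised to 24 arrays, with 3 arrays for each group and tissue. The control mice were not irradiated. The other groups received γ-rays from a caesium source for 22 hours a day over 485 days, at 0.032 μGy/min (low, 21 mGy in all), 0.65 μGy/min (mid, 420 mGy) or 13 μGy/min (high, 8000 mGy). Organs were taken as soon as the exposure ended, so every irradiated group was sampled once and after the same time. The strain and age of the mice are not given in the sources used here, and the labels tie no kidney array to a testis array. The study's design text describes the 3 samples of a group as biological replicates.

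Complex I is the entry point of electrons from NADH into the respiratory chain and pumps protons across the inner mitochondrial membrane. Its membrane arm is built around the mitochondrially encoded ND subunits, while most other subunits are encoded in the nucleus, made in the cytosol and imported. Proximal tubule cells of the kidney depend on oxidative phosphorylation for solute reabsorption, and in the testis somatic cells and developing germ cells both carry mitochondria. Mitochondrial genes are read as long transcripts that span many genes and are then cut apart. ND6 lies on the opposite strand from the other ND genes. In the RefSeq annotation of GRCm38.p6 the next protein-coding gene after ND3 is ND4L. ND4L overlaps its neighbour ND4, as ND5 overlaps ND6. The probe sequences were not used here. Whether probes of overlapping genes, such as ND4L and ND4, read separate RNAs or a shared RNA was not tested. Nor was it tested whether a probe reads a nuclear copy of mitochondrial DNA.

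In kidney, probes for the small subunits ND4L and ND3 read higher after irradiation at the mid or high dose rate than in controls. No ND probe passed the test at the low dose rate. The largest change was that of ND4L at the mid dose rate. On the normalized scale described below, its probe 104480538 was 2.61-fold and probe 106840286 1.99-fold above control. Their mean deposited signals were 2281 against 986 in controls and 785.3 against 433, which are smaller folds. ND3 was 2.24-fold above control at the high dose rate on that scale, with mean deposited signals of 1471 against 725.7. The tested probes of ND1, ND2, ND4, ND5 and ND6 did not pass the test in any kidney comparison. In testis no ND probe passed the test, although ND1 probe 102650064 read higher in each successive group and had no overlap between neighbouring groups.

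Kidney levels are log2 values after neqc, a background model and quantile normalization applied to the deposited signals, and testis levels are log2 values of deposited signals with a floor of 16, quantile normalized. Differences within a tissue are on these log2 scales, and the scale of differences between tissues is given with them. Differences are given with the limma standard error (SE). Adjusted p-values come from limma with Benjamini-Hochberg adjustment over all probes tested, 10903 in kidney and 28816 in testis. A change was called at an adjusted p under 0.05. Of the 13 ND probes, 11 were bright enough to test in kidney and 12 in testis. The probes left out were ND2 probe 106770037 in both tissues, whose deposited signal was between -20 and 18 in kidney and between -99 and 6 in testis, and ND6 probe 103360064 in kidney, whose signal lay between 3 and 34. A probe averaged 28 to 69 beads on a kidney array.

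The kidney arrays detected 8879 to 10985 probes each, and their median correlation with the other kidney arrays was between 0.982 and 0.992. Every mid array detected more probes (10183 to 10985) than any control (8879 to 9846) or low array (9545 to 9726), and the high arrays detected 9622 to 10230. Whether this bears on the ND differences was not tested. Of the proximal tubule markers, the 4 that could be named on the array were all tested in kidney, with no limma call in any comparison with control, at most 1 at an unadjusted p under 0.05 in each, and median differences from -0.16 to -0.06. Their summed deposited signal was 65070 to 70650 in controls, 51460 to 67590 at the low, 56930 to 61210 at the mid and 59280 to 70240 at the high dose rate. Of the germ cell markers, the pair that could be named on the array (Prm2 and Zpbp) was detected in testis and below the detection filter in kidney. The 4 macrophage markers tested in kidney had median differences of 0.75 at the low, 0.15 at the mid and 0.18 at the high dose rate, with no limma call and 4, 0 and 0 at an unadjusted p under 0.05. Of all probes tested in kidney, 8.33%, 13.6% and 11.9% stood at an unadjusted p under 0.05 in these comparisons. In tissue RNA, fewer cells of a type and less RNA per cell cannot be told apart.

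**Figure D1:**
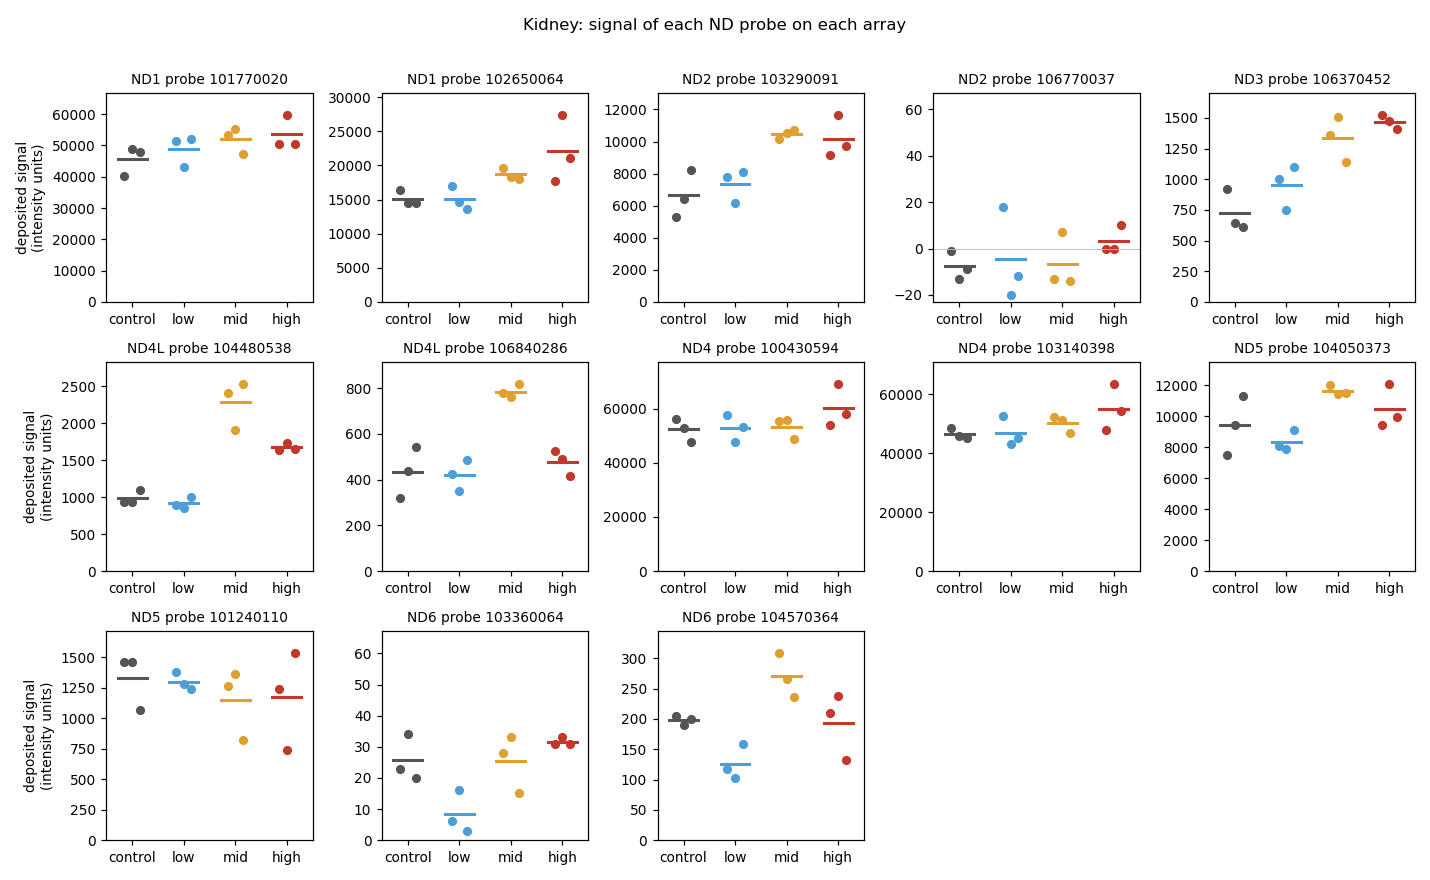
Deposited signal (intensity units, linear) of each of the 13 ND probes on the 12 kidney arrays, 1 panel a probe, with 1 point an array and a bar at the mean of the 3 arrays of a group. The 3 mid arrays of ND4L probe 104480538 sit between 1912 and 2527 and the 3 control arrays between 931 and 1091. Arrays of the ND4 probes and of ND5 probe 101240110 overlap between groups. Scales differ between panels.

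ND4L is a small hydrophobic subunit that links parts of the membrane arm. In kidney, the deposited signal of its probe 104480538 was 936, 931 and 1091 in controls, 897, 852 and 999 at the low dose rate, 2404, 1912 and 2527 at the mid and 1634, 1738 and 1650 at the high dose rate. Every mid array lay above every high array, and every high array above every control and low array. The level rose by 1.39 ± 0.12 (SE) at the mid dose rate (adjusted p = 0.00317) and by 0.81 ± 0.12 at the high dose rate (adjusted p = 0.0234), and differed by -0.12 ± 0.12 at the low dose rate (adjusted p = 0.859). It was also higher at the mid than at the low dose rate, by 1.5 ± 0.12 (adjusted p = 0.00141), and at the high than at the low dose rate, by 0.93 ± 0.12 (adjusted p = 0.0167). The high dose rate differed from the mid by -0.58 ± 0.12, which did not pass the test (adjusted p = 0.201).

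The other ND4L probe, 106840286, gave deposited kidney signals of 319, 438 and 542 in controls, 425, 352 and 487 at the low, 779, 760 and 817 at the mid and 523, 490 and 415 at the high dose rate. Only the mid arrays stood apart from the controls, and the high arrays lay within the range of the controls. Its level rose by 0.99 ± 0.16 at the mid dose rate (adjusted p = 0.0485) and was higher there than at the low dose rate by 1.06 ± 0.16 (adjusted p = 0.0278). At the high dose rate it differed from control by 0.10 ± 0.16 (adjusted p = 0.885), where the first ND4L probe had risen, so the ND4L probes disagree at that dose rate. The high dose rate differed from the mid by -0.89 ± 0.16 without passing the test (adjusted p = 0.131).

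ND3 is a small subunit with a loop at the junction between the membrane arm and the arm that takes up NADH. Its single probe, 106370452, had deposited kidney signals of 923, 647 and 607 in controls, 1004, 750 and 1101 at the low, 1361, 1507 and 1144 at the mid and 1523, 1478 and 1411 at the high dose rate. All mid and high arrays lay above all control arrays, and the low arrays overlapped the controls. The level rose by 1.17 ± 0.20 at the high dose rate (adjusted p = 0.0352). At the mid dose rate the difference was 1.07 ± 0.20 (adjusted p = 0.0585) and at the low dose rate 0.48 ± 0.20 (adjusted p = 0.543), neither past the threshold. Mid and high differed by 0.09 ± 0.20.

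These calls rest on few arrays. ND4L probe 104480538 at the mid dose rate kept its call without any single kidney array, with adjusted p from 0.00127 to 0.0314. At the high dose rate it lost its call without control replicate 3 (adjusted p = 0.0953) or high replicate 3 (adjusted p = 0.138). ND4L probe 106840286 at the mid dose rate lost its call without any one of 9 arrays, control replicate 3, high replicates 1 and 3 and all low and mid arrays, with adjusted p from 0.0547 to 0.164. ND3 at the high dose rate also lost its call without any one of 9 arrays, control replicates 3 and 4, low replicate 4 and all mid and high arrays, with adjusted p from 0.0519 to 0.154.

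ND6, encoded on the other strand and also a connecting subunit, was dim. Deposited kidney signals of its probe 104570364 were 204, 190 and 200 in controls and 308, 266 and 236 at the mid dose rate, with means of 126 ± 28.4 (SD, n = 3) at the low and 193 ± 54.8 at the high dose rate. The low arrays lay below, and the mid arrays above, all 3 controls. Neither difference passed the test, at -0.25 ± 0.10 for low (adjusted p = 0.534) and 0.20 ± 0.10 for mid (adjusted p = 0.395), and the mid minus low difference was 0.45 ± 0.10 (adjusted p = 0.0752). Over the 22 alternatives tried, the low difference ran from -0.72 to -0.20 and did not pass the test in any.

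ND1 sits where ubiquinone enters the membrane arm, and its probes behaved unequally in kidney. Deposited signals of probe 102650064 were 16351, 14505 and 14446 in controls, 16986, 14624 and 13554 at the low, 19626, 18367 and 18044 at the mid and 17766, 27359 and 21139 at the high dose rate. All mid and high arrays exceeded all control and low arrays. The level differed from control by 0.02 ± 0.13 at the low, 0.43 ± 0.13 at the mid (adjusted p = 0.181) and 0.49 ± 0.13 at the high dose rate (adjusted p = 0.129), none past the threshold. The brighter ND1 probe, 101770020, had deposited signals from 40315 to 48945 in controls, 43049 to 51921 at the low, 47411 to 55417 at the mid and 50481 to 59677 at the high dose rate. Its differences from control were 0.10, 0.18 and 0.10 (SE 0.09 each), and none passed the test.

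ND2, ND4 and ND5 are the antiporter-like subunits that form the proton channels of the membrane arm. ND2 probe 103290091 had deposited kidney signals of 5266, 6446 and 8251 in controls, 7803, 6165 and 8126 at the low, 10154, 10560 and 10732 at the mid and 9167, 11642 and 9702 at the high dose rate. Again the mid and high arrays lay above all control and low arrays. The differences from control were 0.16 ± 0.18 at the low, 0.80 ± 0.18 at the mid (adjusted p = 0.113) and 0.57 ± 0.18 at the high dose rate (adjusted p = 0.226), and did not pass the test.

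The ND4 probes differed from control by little at each dose rate. Deposited kidney signals of probe 100430594 were 47804 to 56192 in controls, 47529 to 57737 at the low, 48756 to 55865 at the mid and 54027 to 69015 at the high dose rate, and its differences from control lay between -0.01 and 0.09 (SE 0.05). Probe 103140398 gave 45286 to 48696 in controls, 43027 to 52692 at the low, 47054 to 52415 at the mid and 47762 to 63439 at the high dose rate, with differences between 0.00 and 0.05 (SE 0.06). Both ND4 probes and ND1 probe 101770020 were among the 11 brightest probes of every kidney array. Quantile normalization sets a level by the probe's rank on its array. Without further normalization of the deposited signals, the high minus control differences were 0.20 ± 0.13 for ND4 probe 100430594, 0.24 ± 0.13 for ND4 probe 103140398 and 0.23 ± 0.13 for ND1 probe 101770020, with no call. Whether the scanner was near its upper limit was not tested.

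The ND5 probes pointed different ways. Probe 104050373 had deposited kidney signals of 7504, 9415 and 11309 in controls, 8055, 7875 and 9096 at the low, 11982, 11410 and 11465 at the mid and 9439, 12047 and 9915 at the high dose rate. The mid arrays lay just above the highest control, and the difference was 0.46 ± 0.16 (adjusted p = 0.241). Probe 101240110 gave 1463, 1459 and 1069 in controls, 1375, 1281 and 1237 at the low, 1265, 1360 and 820 at the mid and 1240, 742 and 1531 at the high dose rate. Its groups overlapped throughout, with differences of -0.24 ± 0.31 at the mid and -0.29 ± 0.31 at the high dose rate.

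Over the 11 ND probes tested in kidney, 2 were called at the mid dose rate, both higher, against 0.312% of all 10903 probes tested (0.183% called higher). At the high dose rate 2 were called, both higher, against 0.504% of all probes (0.293% higher). At the low dose rate limma called none, with 2 ND probes and 8.33% of all probes at an unadjusted p under 0.05, and 0% of all probes were called. Between irradiated groups, 2 were called for mid against low, where 0.651% of all probes were, and 1 for high against low, where 0.752% were. None was called for high against mid (0.0275% of all probes), with 3 ND probes and 8.48% of all probes at an unadjusted p under 0.05. The F-test of any difference among the 4 groups called both ND4L probes, against 0.578% of all probes. With array weights limma called 6 ND probes at the mid and 4 at the high dose rate, but then 14.6% and 18.9% of all probes were called.

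The median difference from control over the 11 probes was 0.00 at the low, 0.43 at the mid and 0.10 at the high dose rate, and that over all probes was between -0.01 and 0. At the mid dose rate 10 of the 11 ND probes were higher than in controls, at the high dose rate 9 were. The deposited mid signals lay above all control signals for 7 of the 11 probes, as they did for 10.9% of all probes, and the high signals for 5 of the 11, against 8.4% of all. For 4 of the 11 (ND1 probe 102650064, ND2, ND3 and ND4L probe 104480538) all mid and high arrays exceeded all control and low arrays, which held for 1.75% of all probes tested. The mean over the 11 ND probes, relative to the control mean, was -0.08 to 0.10 on control arrays, -0.06 to 0.08 on low, 0.44 to 0.53 on mid and 0.25 to 0.32 on high arrays.

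**Figure D2:**
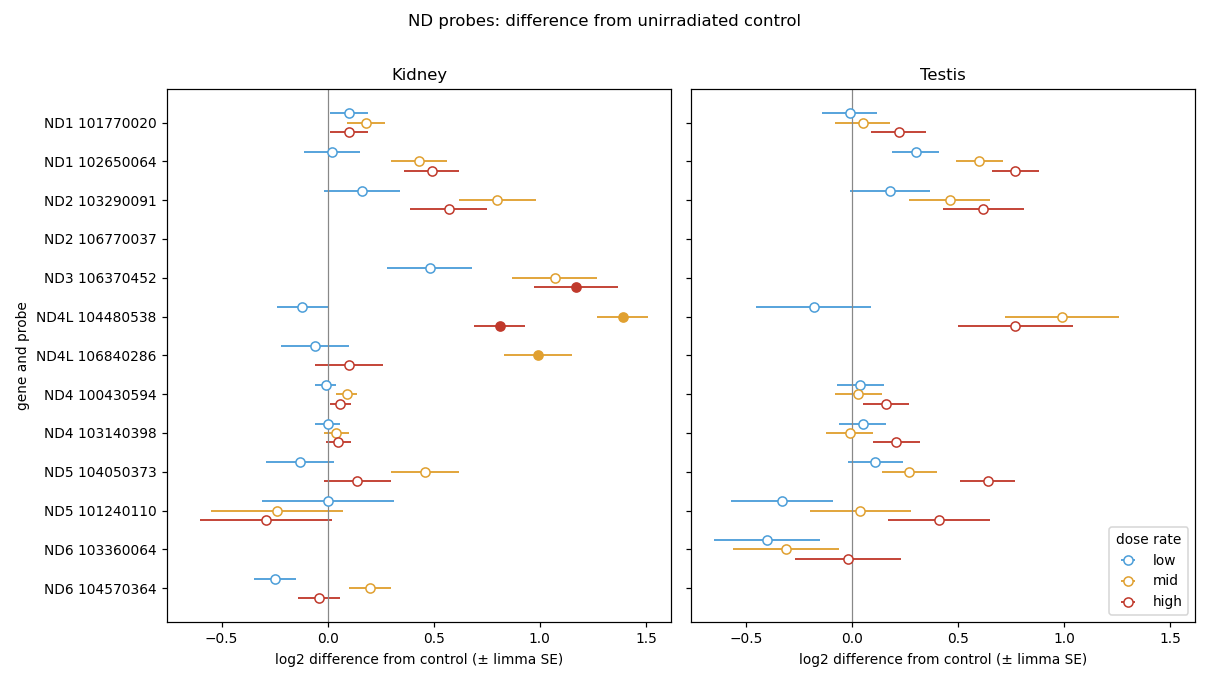
Log2 difference from the unirradiated control for each ND probe at the low, mid and high dose rate, in kidney (left) and testis (right), with limma SE bars and 3 arrays a group. Filled points passed an adjusted p of 0.05 and open points did not; the 4 filled points are kidney ND4L and ND3, and probes below the detection filter, or above the testis noise limit on 2 or fewer arrays, have no point.

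Testis levels were normalized apart from kidney, so levels are not compared between tissues. No detection scores were used for testis. The values below 0, mirrored about 0, gave instead a noise limit for each array (their 99th percentile), which was between 84.5 and 133.6 signal units. The brightest probe of an array was at 66127 to 82930 on the high arrays and at 49010 to 68437 on the other testis arrays, so deposited signals and normalized differences are both given.

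ND1 probe 102650064 had deposited testis signals of 11128, 10866 and 10679 in controls, 12611, 12268 and 13558 at the low, 16189, 15271 and 15076 at the mid and 17024, 17098 and 17780 at the high dose rate. The 4 groups followed the order of dose rate with no overlap between neighbours, and it was the only 1 of the 28816 probes tested in testis to do so (0.00347%). On the normalized scale its level was 13.35 ± 0.03 (SD, n = 3) in controls, 13.65 ± 0.02 at the low, 13.95 ± 0.07 at the mid and 14.12 ± 0.05 at the high dose rate. The differences from control were 0.30 ± 0.11 (SE, adjusted p = 1), 0.60 ± 0.11 (adjusted p = 0.128) and 0.77 ± 0.11 (adjusted p = 0.101), so none passed the test. These SEs come from a variance shared with other probes and are wider than the spread of this probe. With limma's trend and robust options, in which the shared variance follows the level, the mid and high differences had adjusted p of 1.11e-09 and 1.54e-14. With median scaling in place of quantile normalization, the difference was 0.03 ± 0.18 at the low dose rate. It was then 0.37 ± 0.18 at the mid (adjusted p = 0.671) and 0.69 ± 0.18 at the high dose rate (adjusted p = 0.403). Over the 19 alternatives tried, the mid and the high difference were each called in 3. The other ND1 probe, 101770020, did not follow that order, with 43285 to 50156 in controls, 40445 to 47498 at the low, 42654 to 47566 at the mid and 48784 to 58453 at the high dose rate.

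ND2 probe 103290091 had deposited testis signals of 3519, 3052 and 3472 in controls, 3887, 4075 and 3004 at the low, 4402, 5419 and 3599 at the mid and 4666, 5050 and 4779 at the high dose rate. Mid and high arrays exceeded all controls, with differences of 0.46 ± 0.19 (adjusted p = 0.614) and 0.62 ± 0.19 (adjusted p = 0.36). ND5 probe 104050373 read 3829, 3684 and 3560 in controls, 4220, 3689 and 3511 at the low, 4384, 4576 and 3901 at the mid and 5688, 5209 and 5445 at the high dose rate. It was highest on the high arrays, by 0.64 ± 0.13 over control (adjusted p = 0.27). ND5 probe 101240110 ranged from 2054 to 2931 in controls and from 2881 to 3190 at the high dose rate, a difference of 0.41 ± 0.24. The ND4 probes differed from control by between -0.01 and 0.21 (SE 0.11).

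ND4L probe 104480538 had deposited testis signals of 267, 405 and 335 in controls, 365, 340 and 197 at the low, 599, 789 and 602 at the mid and 485, 523 and 657 at the high dose rate, all above the noise limit. As in kidney, the mid and high arrays exceeded all control and low arrays. The differences from control were -0.18 ± 0.27 at the low, 0.99 ± 0.27 at the mid (adjusted p = 0.315) and 0.77 ± 0.27 at the high dose rate (adjusted p = 0.427), none past the threshold.

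ND3 and ND4L probe 106840286 were near the noise in testis and get no fold. Since they passed the testis filter on low values mainly through irradiated arrays, their differences there support nothing. Deposited ND3 signals were -10, -32 and 5 in controls, 58, 43 and 97 at the low, 136, 135 and 62 at the mid and 73 to 126 at the high dose rate, of which a pair of mid arrays passed the noise limit. The second ND4L probe ranged from 12 to 113 and passed it on 1 mid array. ND6 was read by a different probe in each tissue. Probe 103360064, undetected in kidney, gave a highest signal of 209 in testis and passed the noise limit on 11 of 12 arrays, while probe 104570364, detected in kidney, gave 5 to 105 in testis and passed it on none.

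**Figure D3:**
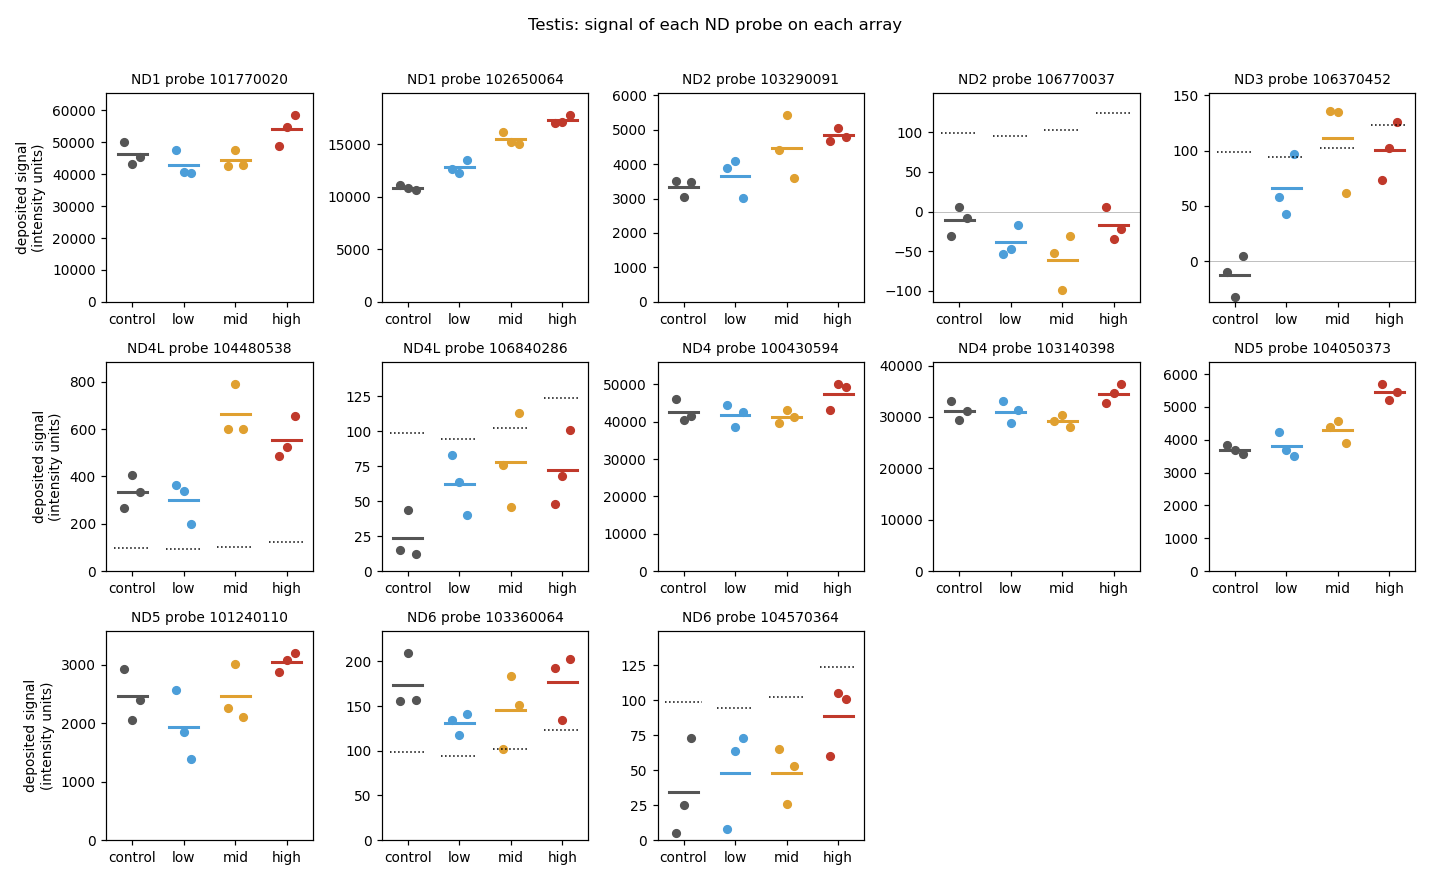
Deposited signal (intensity units, linear) of each of the 13 ND probes on the 12 testis arrays, with 1 point an array and a bar at the group mean; the dotted lines, drawn for dim probes, are the mean noise limit of a group's arrays. The control arrays of ND1 probe 102650064 lie between 10679 and 11128 and its high arrays between 17024 and 17780, with low and mid arrays in between.

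In testis limma called none of the 12 ND probes tested at the low (0.0174% of all probes called), mid (0.0521%) or high dose rate (0.0174%). Of the 9 ND probes above the noise limit on at least 3 testis arrays, 1, 3 and 4 stood at an unadjusted p under 0.05, as did 4.36%, 7.73% and 9.69% of all probes. The F-test called none either, with 4 of the 9 and 9.02% of all probes at an unadjusted p under 0.05, and 0.0902% of all probes called. Beside ND3, which was at the noise, the trend and robust options called ND1 probe 102650064 and ND4L probe 104480538 at the mid dose rate. At the high dose rate they called both ND1 probes, ND2, ND4L probe 104480538, ND4 probe 103140398 and ND5 probe 104050373, all higher than in controls. These options called 0%, 0.75% and 1.19% of all probes at the low, mid and high dose rate. At the mid dose rate the deposited signals of 4 of the 9 probes lay above all controls. The same 4 did so at the high dose rate: ND1 probe 102650064, ND2, ND4L probe 104480538 and ND5 probe 104050373. All signals lay above all controls at the mid dose rate for 7.38%, and at the high for 6.77%, of all probes tested, dim ones included.

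Of the 8 ND probes that were tested in both tissues and stood above the testis noise limit on at least 3 arrays, 3 (ND1 probe 102650064, ND2 and ND4L probe 104480538) had all mid and all high arrays above all controls of the same tissue in kidney and in testis. This held for 0.564% of the 10292 probes tested in both, dim ones included. At the mid dose rate alone it held for 4 of the 8 and for 1.77% of all, and at the high dose rate for 3 and for 1.2%. The difference between tissues was tested itself, as an interaction over 23306 probes, and limma called no ND probe for the low (0% of all probes called), mid (0.0129%) or high dose rate (0.0215%). At an unadjusted p under 0.05 stood 2, 1 and 4 ND probes, and 5.27%, 6.9% and 8.77% of all probes. All of these but ND5 probe 104050373 at the high dose rate (-0.51 ± 0.22) were ND3, ND4L probe 106840286 and ND6 probe 104570364, whose testis signals were at or near the noise. For ND4L probe 104480538 the kidney minus testis difference of the change was 0.07 ± 0.31 at the low, 0.26 ± 0.31 at the mid and -0.06 ± 0.31 at the high dose rate. For ND1 probe 102650064 it was -0.28 ± 0.19, -0.17 ± 0.19 and -0.29 ± 0.19. None of these exceeded 2 SE, which does not show that the tissues responded alike.

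The rest of the mitochondrial genome gave 6 more genes that could be named on the array, taken by their brightest probe as every gene list below: COX1, COX2 and COX3 of cytochrome c oxidase, CYTB of complex III, and ATP6 and ATP8 of ATP synthase. Limma called none of the 6 against control in either tissue, with 3 and 2 at an unadjusted p under 0.05 in kidney and 2 and 4 in testis at the mid and high dose rates. Of all probes tested, 13.6% and 11.9% stood there in kidney and 7.73% and 9.69% in testis. All 6 read higher than control at the mid dose rate in both tissues and at the high dose rate in testis, and 5 did so at the high dose rate in kidney, where CYTB was at 0.00. Over all 9 of their tested probes, 9 at the mid and 7 at the high dose rate read higher in kidney. The median differences over these 9 probes in kidney were 0.25 at the mid and 0.11 at the high dose rate, beside 0.43 and 0.10 over the 11 ND probes. Nearest to the threshold in kidney at the high dose rate were COX2, at 0.54 ± 0.12 (adjusted p = 0.0862), ATP8, at 0.43 ± 0.11 (adjusted p = 0.129), and ATP6, at 0.11 ± 0.07 (adjusted p = 0.628). Dimmer probes of the same genes read higher: COX2 probe 100870717 rose by 0.68 ± 0.12 (adjusted p = 0.0494), and ATP6 probe 103140731 differed by 0.41 ± 0.09 (adjusted p = 0.0811). COX3 differed by 0.01 ± 0.05 there, and is among the brightest probes as ND4 is.

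Of the nuclear complex I subunits, 19 of 36 could be named on the array and 17 were tested. In kidney 1 rose at the mid dose rate, Ndufb9, by 0.53 ± 0.09 (adjusted p = 0.0485). At the high dose rate 2 rose: Ndufb9 by 0.94 ± 0.09 (adjusted p = 0.00406) and Ndufa6 by 0.98 ± 0.16 (adjusted p = 0.0352). Both are accessory subunits, and neither was called in testis. In kidney 0.183% of all probes were called higher at the mid and 0.293% at the high dose rate. In testis 5 and 3 of the 17 stood at an unadjusted p under 0.05 at the mid and high dose rates. Of all probes, 7.73% and 9.69% did. At the high dose rate 15 of the 17 read higher than control in kidney, with a median difference of 0.09 beside 0 over all probes. Over all 19 tested probes of these subunits the median was 0.10 at the high and 0.06 at the mid dose rate, beside 0.10 and 0.43 over the 11 ND probes.

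Of the complex I assembly factors 6 were tested in kidney and 7 in testis, and of the factors for mitochondrial DNA, transcription and RNA likewise 6 and 7. Limma called none, with at most 2 of a list at an unadjusted p under 0.05 in a comparison with control, and their median differences were between -0.15 and 0.13. By comparison with control, 0% to 0.504% of all probes were called and 4.36% to 13.6% stood at an unadjusted p under 0.05. The assembly factors with the lowest p in kidney at the high dose rate were Ndufaf2 (0.66 ± 0.21, adjusted p = 0.209), Ndufaf3 (-0.10 ± 0.08) and Ndufaf4 (-0.24 ± 0.21). Of the DNA and RNA factors they were the single-stranded DNA binding protein Ssbp1 (0.14 ± 0.05, adjusted p = 0.328), Slirp (0.18 ± 0.08, and 0.68 ± 0.18 with an adjusted p of 0.128 at its dimmer probe 6620315), which stabilises mitochondrial mRNA, and the poly(A) polymerase Mtpap (0.07 ± 0.05). Ppargc1b, a coactivator of mitochondrial biogenesis and the only such regulator tested in kidney, differed by -0.18 ± 0.05 at the mid dose rate (adjusted p = 0.19).

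**Figure D4:**
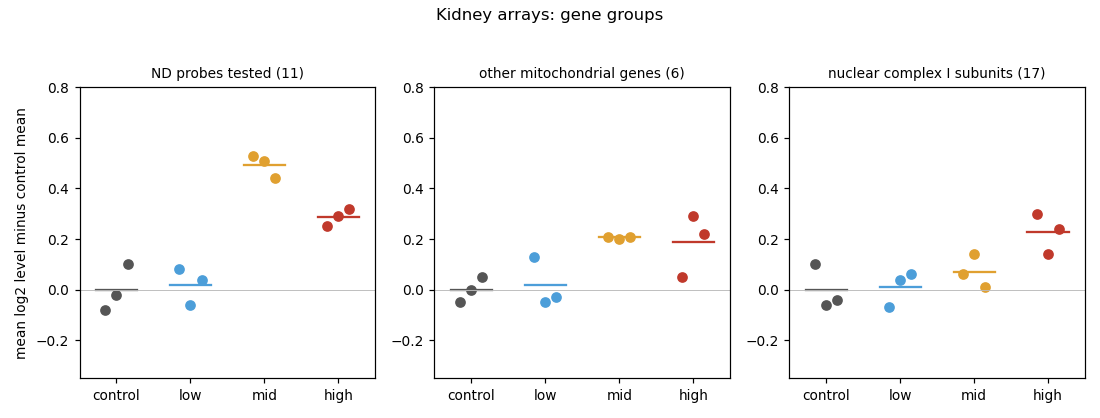
Kidney arrays: mean log2 level, relative to the control mean, of the 11 ND probes tested, of 6 other mitochondrial genes and of 17 nuclear complex I subunits. The ND mean takes every tested probe, dim ones included, and the other means only the brightest probe of each gene, so the panels are not on a like basis. Each point is an array and each bar a group mean; mid arrays of the ND probes sit at 0.44 to 0.53 and high arrays at 0.25 to 0.32, all above the control and low arrays.

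The probes whose kidney pattern was most like that of the ND probes were sought by the Pearson correlation with the mean of the 11 ND probes over the 12 kidney arrays, which share the group means and the normalization. Of 10892 other probes, 3 had an r of at least 0.9 and 89 of at least 0.8. Among named genes outside the mitochondrial genome the highest were Casc3 (r = 0.91), Neat1 (0.90), Itpripl1 (0.88), Cnot6 (0.88) and Isca1 (0.87). Among mitochondrial genes ATP8 had 0.90, COX2 0.83 and 0.69, ATP6 0.82 and 0.32, COX1 0.78, CYTB 0.42 and 0.31 and COX3 0.00 (each value is 1 probe). Of the 5 nuclear genes, Isca1, an iron-sulfur cluster assembly factor, was called at the mid dose rate, by 0.59 (adjusted p = 0.0499), and the other 4 were not called in any kidney comparison with control. The ND mean was highest on the mid arrays, so picking genes by it favours a rise there, and the Isca1 call is no separate support.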

How the data were processed

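RNA was measured on Illumina Mouse-6 arrays. Kidney signals are an intensity that the authors normalized by rank-invariant scaling and background-subtracted in BeadStudio 1.5.0.34, per the file headers. The deposited detection score is a fraction from 0 to 1. Bead numbers, counts of beads averaged per probe and array, were deposited beside it. Testis signals are a deposited intensity, and no source used here states their normalization. The control-probe signals in the quality block of the kidney header were not used, and the 23 other per-sample columns of the kidney table were not used.

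Kidney signals went through neqc (limma 3.58.1, R 4.3.3, offset 16), and probes with a score above 0.99 on at least 3 arrays were kept. The noise SD fitted by neqc was 175 to 218, against 19.8 to 28.4 from scores between 0.05 and 0.95, an alternative. Testis signals were floored at 16, put on the log2 scale and quantile normalized, and probes above their array median on at least 3 arrays were kept. Each tissue had 1 limma fit over 4 groups, and both tissues 1 interaction fit. Only the high against control comparison within each tissue was tried on simulated data. Array number limits the precision.

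Members and gene lists were chosen with earlier results of these data known. All ND probes are named. Of a list, genes called against control are named, or those nearest to it in kidney at the high dose rate. The 5 nuclear genes with the highest correlation are named. COX3 and the dimmer COX2, ATP6 and Slirp probes were singled out after their values were seen. Mitochondrial reference sequences were not used here.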

Additional observations from a re-analysis of the deposited data

How the results depend on the processing

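The probe results followed here were only those with an unadjusted p under 0.05 in the main fit. They were refitted on the same arrays, so a kept direction was likely in advance. They kept their direction in all but 3 of 1020 values over 47 results and their alternatives. The exceptions were the ND3 tissue differences, -1.51, -1.76 and -1.59 at the low, mid and high dose rate, which became 0.20, 0.21 and 0.41 with a testis floor of 64. Call counts moved more. In kidney they were 2 (mid against control), 2 (high against control), 2 (mid against low), 1 (high against low), 0 (high against mid) and 2 (F-test). For mid against control, mid against low and the F-test the count was 1 each with noise from central detection scores, no background model, median scaling, no filter and no further normalization. For high against control it was 0 with no background model, median scaling and no filter, and for high against low 0 with median scaling. The fit of only the groups compared gave 0 for mid against control, 0 for high against control and 4 for mid against low. Array weights gave 6, 4, 7, 3, 2 and 7 in the order above, but also called 14.6% and 18.9% of all probes for mid and high against control. Leaving out 1 array gave 1 to 3, 0 to 2, 1 to 4, 0 to 1, 0 and 1 to 3. Without the 3 kidney arrays of lowest correlation (replicate 2 of control, low and high) high against control gave 1 (ND3) and high against low 0. That alternative and no further normalization were chosen after seeing the data. In testis the count of 0 became 1 (mid), 2 (high) and 1 (F-test) with a floor of 64, 1, 1 and 1 with no filter, 3, 7 and 7 with trend and robust options, and 1 at mid with array weights. ND3, at the noise in testis, was the call with array weights and among those with trend and robust options. Leaving out 1 array gave 0 to 1 at mid and at high, the 1 being ND3 without the third low array (mid count) or mid replicate 130 (high count). Low against control and the tissue differences had 0 calls throughout. The cause of these moves was not tested.

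ND4L probe 104480538 was called in 21 of 22 alternatives for mid against control, in 15 for high against control and in all 22 for mid against low, ND4L probe 106840286 in 6 for mid against control and ND3 in 8 for high against control. High against low, that ND4L probe lost its call without any single low array or high replicate 3 (adjusted p from 0.0505 to 0.0961). Mid against low, ND4L probe 106840286 lost it without any single low or mid array (adjusted p from 0.059 to 0.122). The kidney replicate numbers recur between groups, but unevenly, and the mid group has no replicate 2. Same-numbered arrays deviated together more often than others, though not in every pair (13 pairs, correlation -0.17 to 0.47, median 0.19, 10 over 0.1). Of 41 pairs with different numbers 11 were over 0.1 (median -0.05). With the replicate number as a block, calls were 1 for mid against control, without ND4L probe 106840286 (adjusted p = 0.0719), 1 for high against control, without ND3 (adjusted p = 0.0694), and 1 in the F-test, without ND4L probe 106840286 (adjusted p = 0.0825). The other counts did not move. Testis labels share no numbers. Low signal over background limits ND6 in both tissues and ND3 and the dimmer ND4L probe in testis.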
